A study of Mus musculus with 15 samples.

Results

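Foxp3, the transcription factor that defines regulatory T cells, and 7 genes that mark those cells were followed through helper T cell cultures driven toward the Th1, Th9 and Th17 lineages. The set was chosen by gene symbol, namely Foxp3, Itgae, Izumo1r, Ikzf2, Ikzf4, Nrp1, Tnfrsf18 and Lrrc32. Of these 8 genes, 7 had a probe set paired with their symbol among the 18194 genes so named on the array, and all 7 were among the 15498 genes tested. Lrrc32, which holds latent TGF-beta at the surface of activated regulatory T cells, was not analysed here. Each gene was represented by the probe set with the highest mean over the 15 arrays. Other probe sets served as a check for Itgae, Ikzf2, Ikzf4 and Nrp1. Foxp3, Izumo1r and Tnfrsf18 had no other probe set, so this check was not available for them.

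In the activated groups, Foxp3 was highest in Th17 cultures, intermediate in Th9 cultures and below the filter threshold in Th1 cultures, and in Th17 cultures it was 3.01-fold lower after activation with plate-bound antibodies than with presented antigen. Itgae showed the largest difference of the 7 genes between the activations, 12.95-fold lower with plate-bound antibodies in Th9 and 12.5-fold lower in Th17 cultures, while its Th1 levels overlapped. Izumo1r, Ikzf2 and Tnfrsf18 moved the other way and were higher with plate-bound antibodies. The 7 genes therefore did not move together.

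Naive CD4 T cells were taken from 3A9 mice, whose transgenic T cell receptor recognises a peptide of hen egg lysozyme (HEL), and had been sorted with an antibody against that receptor. All polarized cells shared this receptor, strain and 4 days of culture. In the activation labelled HA, irradiated (30 Gy) wild type splenocytes presented HEL, at 1 µg/ml in Th9 cultures and 2 µg/ml in Th1 and Th17 cultures. In the activation labelled PBAB, cells were stimulated by antibodies bound to the plate, 1 µg/ml of anti-CD3 and 10 µg/ml of anti-CD28. Th1 cultures received IL-12 at 10 ng/ml and anti-IL-4 at 10 µg/ml. In Th9 cultures IL-4 was used at 10 ng/ml with 1 ng/ml of TGF-beta. In Th17 cultures TGF-beta was used at 3 ng/ml, with 10 ng/ml of IL-6 and 5 ng/ml of IL-1alpha. Antibodies against IFN-gamma (20 µg/ml), IL-4 and IL-12 (10 µg/ml each) were also present in Th17 cultures. Each of the 6 polarized and activated groups had 2 arrays, and each of the 3 groups labelled APC alone had 1 array, whose cell content the labels do not define further. The HA cultures contained splenocytes as well as T cells, no array measured sorted cells after culture, and in such bulk samples fewer cells of a type and less RNA per cell cannot be told apart.

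TGF-beta signalling through Smad proteins, together with IL-2 signalling through Stat5, can induce Foxp3 in naive CD4 T cells. IL-6 together with TGF-beta directs such cells toward the Th17 fate, and IL-4 together with TGF-beta toward the Th9 fate, at the expense of Foxp3. Th1 polarization uses no added TGF-beta. Several of the marker genes studied here, among them Tnfrsf18 and Itgae, are also expressed by activated T cells that lack Foxp3, so that none of them defines a regulatory T cell alone.

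Values are log2 expression, in which 1 unit is a 2-fold difference, given as mean ± SD of 2 arrays for a group and as difference ± SE for a comparison. A gene is referred to as called where the limma adjusted p was under 0.05, and "below threshold" means a level under 5.07, the 40th percentile of the table, where signal is not told from background. Among lineage-defining genes, Ifng stood at 12.82 ± 0.54 in Th1 HA and 13.08 ± 0.20 in Th1 PBAB, against at most 8.41 on any other array. Il17a stood at 10.20 ± 0.74 in Th17 HA and 11.84 ± 0.03 in Th17 PBAB, against at most 6.04 on the other activated arrays. Il9, the defining cytokine of the Th9 lineage, stood at 5.84 ± 0.64 in Th9 HA and 6.82 ± 2.11 in Th9 PBAB and was higher in the Th17 groups, at 9.71 ± 0.99 and 9.95 ± 0.81, so the data went against the Th9 label on this marker and Th9 here names the culture. Of 9 T cell markers measured, none was below threshold on both arrays of an activated group. The 3′ to 5′ difference of the actin control probes, a measure of RNA integrity, was 0.0453 to 0.109 in HA and 0.124 to 0.277 in PBAB, ranges that did not overlap. On the APC alone arrays it was 0.736 to 0.994. Its part in the differences between HA, PBAB and APC alone was not tested.

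**Figure D1:**
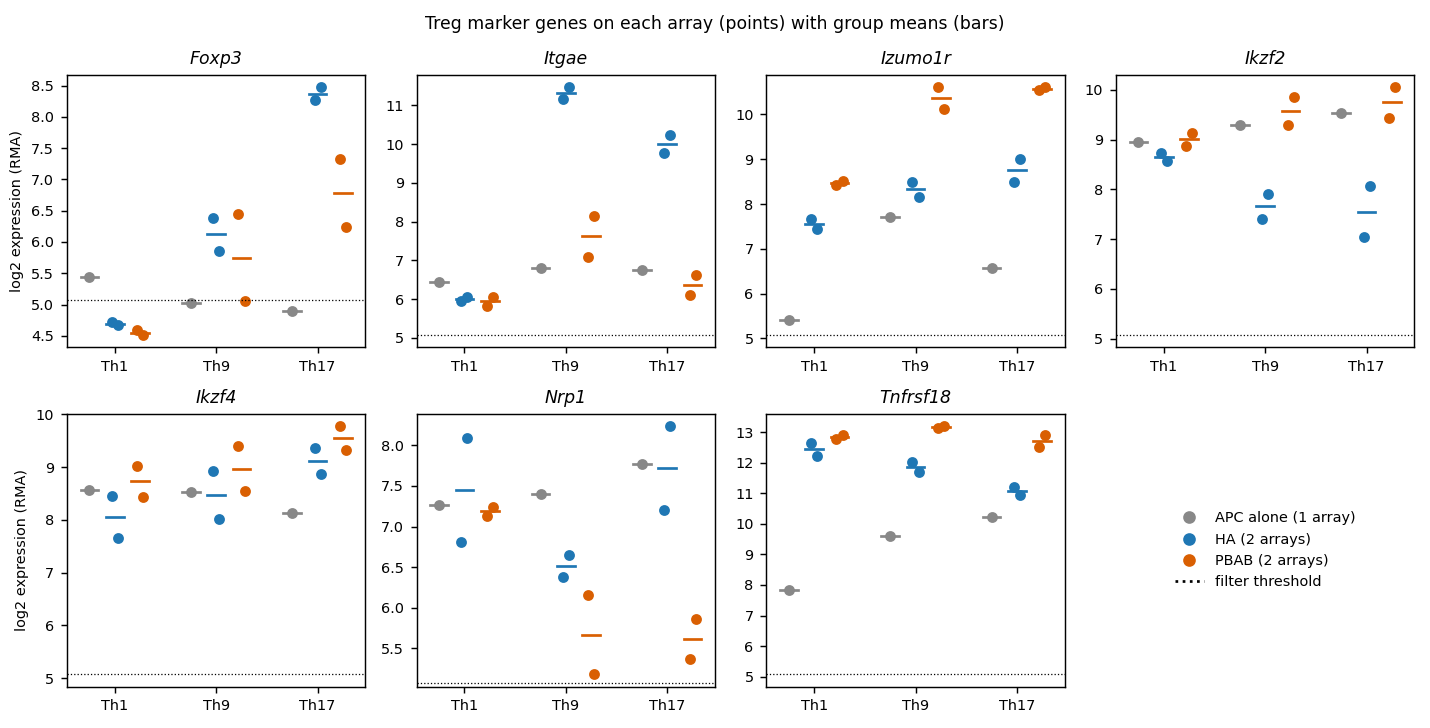
Log2 expression of the 7 genes on each of the 15 arrays, with culture on the x axis, a point for each array, a bar at each group mean and a dotted line at the filter threshold of 5.07. Foxp3 reached 8.26 and 8.48 in Th17 HA and stayed below 5 in both Th1 activated groups, and Itgae was above 9.7 on the 4 Th9 and Th17 HA arrays.

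Foxp3 has a pair of annotated start sites in RefSeq, and the 250 bases before each are shown. Signals from TGF-beta, IL-2 and the T cell receptor converge on the Foxp3 gene, of which regions outside these windows were not examined. The same bases are shown for Izumo1r and Tnfrsf18, which moved opposite to Foxp3 between the activations. Entries were found for 4 of the 8 genes (Foxp3, Izumo1r, Nrp1 and Tnfrsf18). The Foxp3 windows lie at chrX:7579426-7579675 and chrX:7580233-7580482 on the plus strand, and the second lies downstream of start 1. The window of Izumo1r lies at chr9:14903768-14904017 on the minus strand and that of Tnfrsf18 at chr4:156026072-156026321 on the plus strand (RefSeq, GRCm38.p6). Each sequence runs 5′ to 3′ toward the start site, and capitals mark matches on either strand to any of 6 motifs.
Foxp3 start 1: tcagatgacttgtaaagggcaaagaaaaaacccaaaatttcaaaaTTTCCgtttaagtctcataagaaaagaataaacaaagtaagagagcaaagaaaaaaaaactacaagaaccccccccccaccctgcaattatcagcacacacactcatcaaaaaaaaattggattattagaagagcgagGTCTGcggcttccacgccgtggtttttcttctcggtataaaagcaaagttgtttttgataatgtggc
Foxp3 start 2: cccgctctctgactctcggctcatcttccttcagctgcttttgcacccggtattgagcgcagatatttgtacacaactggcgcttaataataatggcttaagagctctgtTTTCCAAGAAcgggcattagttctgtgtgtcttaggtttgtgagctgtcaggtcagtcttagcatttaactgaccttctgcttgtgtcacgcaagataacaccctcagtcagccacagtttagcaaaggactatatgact
Izumo1r: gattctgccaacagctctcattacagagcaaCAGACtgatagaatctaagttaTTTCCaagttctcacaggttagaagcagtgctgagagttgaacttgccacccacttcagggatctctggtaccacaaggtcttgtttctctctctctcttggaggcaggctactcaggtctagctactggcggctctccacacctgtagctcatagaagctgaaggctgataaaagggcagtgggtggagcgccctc
Tnfrsf18: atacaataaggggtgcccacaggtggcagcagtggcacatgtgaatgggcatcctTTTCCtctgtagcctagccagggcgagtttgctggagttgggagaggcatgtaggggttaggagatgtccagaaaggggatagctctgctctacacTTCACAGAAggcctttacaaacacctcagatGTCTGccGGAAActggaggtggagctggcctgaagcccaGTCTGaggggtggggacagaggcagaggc
The letters searched, on both strands, were GGAAA for NFAT, TTCNNNGAA for STAT factors, TGANTCA for AP-1, CAGAC for SMAD factors, AAAGGTCA for NR4A receptors and GTAAACA for forkhead factors. Foxp3 start 1 held a NFAT match that began 205 bases before the start and a SMAD match 67 bases before it. Foxp3 start 2 held a STAT match at 139 bases that overlapped a NFAT match at 140 bases. Izumo1r held a SMAD match at 219 bases and a NFAT match at 197 bases. Tnfrsf18 held NFAT matches at 195 and 61 bases, a STAT match at 99 bases and SMAD matches at 68 and 29 bases. The Nrp1 window held a NFAT match at 172 bases, and none of these 5 windows held an AP-1, NR4A or forkhead match. Among 32851 windows of the same length, 55.6% held the NFAT letters, 42.2% the SMAD letters, 7.02% the STAT letters, 6.75% the AP-1 letters, 3.17% the forkhead letters and 1.34% the NR4A letters, so that NFAT and SMAD matches are common in any window.

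Foxp3 stood at 8.26 and 8.48 on the Th17 HA arrays and at 7.33 and 6.24 on the Th17 PBAB arrays. In Th9 cultures it stood at 6.39 and 5.86 under HA and at 6.44 and 5.06 under PBAB. In Th1 cultures it stood at 4.71 and 4.67 under HA and at 4.59 and 4.51 under PBAB, and on the APC alone arrays at 5.44 (Th1), 5.02 (Th9) and 4.89 (Th17). Both Th17 HA arrays lay above every other array, all 4 activated Th1 arrays were below threshold, and the Th17 PBAB, Th9 HA and Th9 PBAB groups overlapped with their neighbours in the order of means. In all, 8 of 15 arrays exceeded the threshold.

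Under HA, Foxp3 was higher in Th17 than in Th1 cultures by 3.68 ± 0.43 (limma adjusted p = 0.000453), a call that held under every alternative run, and no fold is given because the Th1 mean was below threshold. It was higher in Th17 than in Th9 cultures by 2.25 ± 0.43, or 4.75-fold (limma adjusted p = 0.0147). That call was lost without Th9 HA replicate 2, Th17 HA replicate 1 or Th17 HA replicate 2 (adjusted p 0.108, 0.0626 and 0.0967). The Th9 minus Th1 difference of 1.43 ± 0.43 was not called (limma adjusted p = 0.0974), and was called with the replicate number as a block (adjusted p = 0.0162) and without either Th9 PBAB array (adjusted p = 0.0316 each). Under PBAB, Th17 exceeded Th1, whose mean of 4.55 was again below threshold, by 2.23 ± 0.43 (limma adjusted p = 0.0108), which was lost without Th1 PBAB replicate 1, Th1 PBAB replicate 2 or Th17 PBAB replicate 1 (adjusted p 0.0633, 0.0683 and 0.0887). The other PBAB differences, 1.20 ± 0.43 for Th9 minus Th1 and 1.03 ± 0.43 for Th17 minus Th9, were not called (limma adjusted p = 0.302 and 0.229). The order of Foxp3 thus ran from Th17 through Th9 to Th1 under both activations, and the Th17 minus Th1 step was called in each, its size being set against a Th1 level not told from background.

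Between the activations, Foxp3 fell in Th17 cultures by 1.59 ± 0.43 with PBAB, and the 2 PBAB arrays lay below the 2 HA arrays (limma adjusted p = 0.0277). This call did not hold without Th17 HA replicate 1, Th17 HA replicate 2 or Th17 PBAB replicate 2 (adjusted p 0.075, 0.146 and 0.219). PBAB minus HA was -0.37 ± 0.43 in Th9 cultures, where the arrays overlapped, and -0.14 ± 0.43 in Th1 cultures, where both groups were below threshold (limma adjusted p = 0.701 and 0.88). Averaged over the cultures it was -0.70 ± 0.25 (limma adjusted p = 0.0539), and it was called with the block (adjusted p = 0.0109) and without Th9 PBAB replicate 1 or Th17 PBAB replicate 1 (adjusted p 0.00647 and 0.0202). The test of whether the activation difference varied between cultures was not called for Foxp3 (F = 3.31, limma adjusted p = 0.36), so the Th17 difference was not shown to exceed that of the other cultures.

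Macrophage markers followed the lineage order of Foxp3 among the HA groups but not among the PBAB groups. Their summed level over 10 markers was 11.03 to 11.40 in Th17 HA, 9.65 to 10.07 in Th9 HA and 8.50 to 8.85 in Th1 HA. Under PBAB it was 8.58 to 8.83 in Th17, 8.96 to 9.58 in Th9 and 9.27 to 9.67 in Th1, lowest where Foxp3 was highest. Of the 10 markers, 5 were called higher in Th17 than in Th1 under HA, where 6.9% of all genes were called. Within Th17 cultures 5 were called lower in PBAB than in HA, where 17.1% of all genes were called. Adgre1, C1qb, C1qc, Cd14 and Mrc1 were below threshold in Th1 HA and in the 3 PBAB groups, and Mrc1 also in Th17 HA. The sum correlated with Foxp3 at r = 0.62 over the 12 activated arrays. On the APC alone arrays, which differ from the activated arrays in scale, the same sum was 14.16 to 14.45 and Foxp3 was 4.89 to 5.44. The part of macrophage content in the Foxp3 differences was not tested.

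The genes whose levels followed Foxp3 most closely over the 12 activated arrays, among 3059 genes with an SD of at least 0.5, were Cerk (r = 0.96), Nrarp (r = 0.944), Arhgap31 (r = 0.936), Dsel (r = 0.932) and Tbc1d16 (r = 0.927). Cerk encodes ceramide kinase and Nrarp a target of Notch signalling. The arrays share 6 groups, so these values describe the group pattern more than single arrays. Cerk stood at 9.48 ± 0.23 in Th17 HA, 8.45 ± 0.14 in Th17 PBAB, 8.07 ± 0.05 in Th9 HA, 7.15 ± 0.41 in Th9 PBAB, 6.58 ± 0.15 in Th1 HA and 6.44 ± 0.26 in Th1 PBAB. Cerk was picked for its likeness to Foxp3 on these arrays, so its group order is a description.

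Ikzf2 and Ikzf4 encode Helios and Eos, zinc finger proteins of the Ikaros family that act with Foxp3 in regulatory T cells. Ikzf2 stood at 8.73 and 8.56 in Th1 HA, 7.41 and 7.92 in Th9 HA and 7.04 and 8.07 in Th17 HA. Under PBAB it stood at 8.88 and 9.14 in Th1, 9.29 and 9.86 in Th9 and 9.44 and 10.06 in Th17. On APC alone arrays it stood at 8.95 (Th1), 9.29 (Th9) and 9.54 (Th17). Every PBAB array lay above every HA array, with the narrowest gap in Th1 cultures, and the lineage order under HA (Th1 highest) was the opposite of that under PBAB (Th17 highest).

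Ikzf2 rose with PBAB by 1.92 ± 0.35 in Th9 cultures and by 2.20 ± 0.35 in Th17 cultures, or 3.77-fold and 4.59-fold (limma adjusted p = 0.00536 and 0.0022). The Th1 difference of 0.36 ± 0.35 was not called (limma adjusted p = 0.568). The average over the cultures was 1.49 ± 0.20 (limma adjusted p = 0.000284). Under HA, Ikzf2 was at -0.98 ± 0.35 in Th9 minus Th1 and -1.09 ± 0.35 in Th17 minus Th1 (limma adjusted p = 0.173 and 0.102). Both were called with the block (adjusted p 0.0158 and 0.0074) and with probe set 1456956_at (adjusted p 0.0177 and 0.0168), and the Th17 difference also without Th17 HA replicate 2 (-1.61, adjusted p = 0.0312). With the block the Th17 minus Th1 difference of 0.74 under PBAB was also called (adjusted p = 0.0445), as were the differences in activation effect between Th9 and Th1 cultures and between Th17 and Th1 cultures (1.55 and 1.83, adjusted p 0.0186 and 0.00491, against 0.217 and 0.0761 without the block) and the test over all 3 cultures (F = 19.42, adjusted p = 0.00649, against 0.103). Of the other Ikzf2 probe sets, 1456956_at followed the main one over the 12 activated arrays at r = 0.971, and with it the Th17 against Th1 difference in activation effect and the test over all 3 cultures were called too (1.502 and F = 13.47, adjusted p 0.0306 and 0.0381). Probe set 1421643_at was below threshold on every activated array, and with it the Th9 activation difference was 0.47 and not called (adjusted p = 0.224).

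Ikzf4 stood at 9.35 and 8.87 in Th17 HA, 9.77 and 9.31 in Th17 PBAB, 8.92 and 8.02 in Th9 HA and 9.39 and 8.55 in Th9 PBAB. In Th1 cultures it stood at 8.46 and 7.65 under HA and 9.03 and 8.44 under PBAB, and on APC alone arrays between 8.13 and 8.56. Within each culture the HA and PBAB arrays overlapped. The array numbered 2 lay below the array numbered 1 in all 6 activated groups, by -0.905 to -0.459.

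PBAB minus HA for Ikzf4 was 0.68 ± 0.40 in Th1, 0.50 ± 0.40 in Th9 and 0.43 ± 0.40 in Th17, with an average of 0.54 ± 0.23, none of them called (limma adjusted p = 0.321, 0.528, 0.575 and 0.113). With the replicate number as a block the same differences were called in Th1 and Th9 cultures and in the average (adjusted p 0.00596, 0.0286 and 0.000397). Th17 minus Th1 was 1.06 ± 0.40 under HA and 0.81 ± 0.40 under PBAB (limma adjusted p = 0.175 and 0.315), and was called with the block in both (adjusted p 0.00071 and 0.00392). Th17 minus Th9 was 0.65 ± 0.40 under HA and 0.57 ± 0.40 under PBAB (limma adjusted p = 0.539 and 0.583), also called with the block (adjusted p 0.0171 and 0.0249). The averaged difference was also called after a further quantile normalization and with probe set 1460664_at (0.54 and 0.43, adjusted p 0.0438 and 0.0408). The other Ikzf4 calls named here were made only with the block.

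Of the 5 Ikaros family genes, all tested, Ikzf2 was called higher and 2 were called lower in the average over the cultures. Of all genes, 30.6% were called there. Ikzf1 (Ikaros) fell by 0.50 ± 0.10 and Ikzf3 (Aiolos) fell by 0.62 ± 0.14 (limma adjusted p = 0.0027 and 0.00618). Ikzf3 was also higher in Th9 than in Th1 cultures under PBAB by 1.93 ± 0.24 and in Th17 than in Th1 by 1.24 ± 0.24 (limma adjusted p = 0.00197 and 0.0113). By culture, Ikzf1 was called lower in Th9 (-0.72 ± 0.17, limma adjusted p = 0.0172) and Ikzf3 in Th1 (-1.23 ± 0.24, limma adjusted p = 0.0068). In Th17, where Ikzf2 rose, neither was called (limma adjusted p = 0.479 and 0.213).

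Itgae encodes CD103, the alpha E integrin chain that pairs with beta 7 and binds E-cadherin on epithelia, and TGF-beta is a known inducer of it. It stood at 11.16 and 11.47 in Th9 HA, 9.78 and 10.23 in Th17 HA and 5.94 and 6.05 in Th1 HA. Under PBAB it stood at 7.09 and 8.15 in Th9, 6.10 and 6.61 in Th17 and 5.83 and 6.06 in Th1, and on APC alone arrays at 6.45 (Th1), 6.81 (Th9) and 6.75 (Th17). The 4 Th9 and Th17 HA arrays stood apart from all others, and the Th9 PBAB arrays came next.

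Itgae fell with PBAB by 3.70 ± 0.32 in Th9 cultures and by 3.65 ± 0.32 in Th17 cultures, or 12.95-fold and 12.5-fold (limma adjusted p = 9.95e-05 and 0.000138). In Th1 cultures the difference was -0.05 ± 0.32, with overlapping arrays (limma adjusted p = 0.944). The activation difference itself varied between cultures (F = 42.35, limma adjusted p = 0.00287), by -3.64 ± 0.45 between Th9 and Th1 and by -3.60 ± 0.45 between Th17 and Th1 (limma adjusted p = 0.00418 and 0.00281). Between Th17 and Th9 it differed by 0.05 ± 0.45 (limma adjusted p = 0.983). Averaged over the cultures, Itgae fell by 2.47 ± 0.19 (limma adjusted p = 9.32e-06). The second Itgae probe set followed the main one at r = 0.995 over the 12 activated arrays.

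Under HA, Itgae was higher than in Th1 cultures by 5.32 ± 0.32 in Th9 and by 4.01 ± 0.32 in Th17, or 39.9-fold and 16.1-fold (limma adjusted p = 8.18e-06 and 3.72e-05). Under PBAB, Th9 exceeded Th1 by 1.68 ± 0.32, or 3.2-fold (limma adjusted p = 0.025), which was lost without Th1 PBAB replicate 1, Th1 PBAB replicate 2 or Th9 PBAB replicate 2 (adjusted p 0.185, 0.11 and 0.149). The Th17 minus Th1 difference under PBAB was 0.41 ± 0.32 (limma adjusted p = 0.583). Th17 lay below Th9 by -1.31 ± 0.32 under HA and by -1.26 ± 0.32 under PBAB (limma adjusted p = 0.0454 and 0.0445). These last calls were lost in 10 and 11 of the 12 fits that left out 1 activated array (differences of -1.54 to -1.08 and -1.80 to -0.73). They were also lost with the second probe set (adjusted p 0.104 and 0.0506). Foxp3 was highest in Th17 and Itgae in Th9 cultures under HA, and over the 12 activated arrays their levels correlated at r = 0.534.

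Some other markers moved with Itgae and others of the same lists did not, and their part in its differences was not tested. Trgv4, a gamma chain segment of the gamma-delta T cell receptor, stood at 9.44 and 9.94 in Th9 HA, 8.88 and 9.11 in Th17 HA, 6.49 and 6.54 in Th1 HA and between 3.95 and 5.92 under PBAB, and correlated with Itgae at r = 0.89 over the 12 arrays. It belongs to a list of 6 measured markers of CD8, gamma-delta and NK cells, whose summed level was 9.96 to 11.06 in HA, 7.92 to 10.17 in PBAB and 7.97 to 8.53 in APC alone. Of the 5 tested markers of that list, 3 were called in the average over the cultures, each of them lower, where 30.6% of all genes were called. Ncr1 and Klra8 were below threshold in both activations. Itgae and Cd8a were both higher on the array numbered 2 than on the array numbered 1 in all 6 activated groups. Cd8a correlated with Itgae at r = 0.673, Cd8b1 at r = 0.392 and the CD8, gamma-delta and NK sum at r = 0.431. Itgax, which encodes the dendritic cell integrin CD11c, correlated with Itgae at r = 0.909, at levels of 4.74 to 6.34 on the activated arrays. Zbtb46, also of the dendritic cell list, correlated with Itgae at r = -0.194, and the sum of the dendritic cell list at r = -0.668. The dendritic cell list as a whole held 2 called higher and 2 called lower of 8 tested in that average, with a summed level of 10.47 to 11.68 in HA, 11.50 to 12.41 in PBAB and 9.22 to 10.03 in APC alone, and Xcr1 was below threshold in both activations. The summed level of 5 endothelial and stromal markers was 8.53 to 9.20 in HA, 7.36 to 8.02 in PBAB and 8.62 to 8.86 in APC alone, with 1 of the 5 called lower in the average and Col1a1 and Col3a1 below threshold in both activations. The macrophage sum correlated with Itgae at r = 0.717. On the APC alone arrays, which differ from the activated arrays in scale, that sum was 14.16 to 14.45 and Itgae was 6.45 to 6.81.

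**Figure D2:**
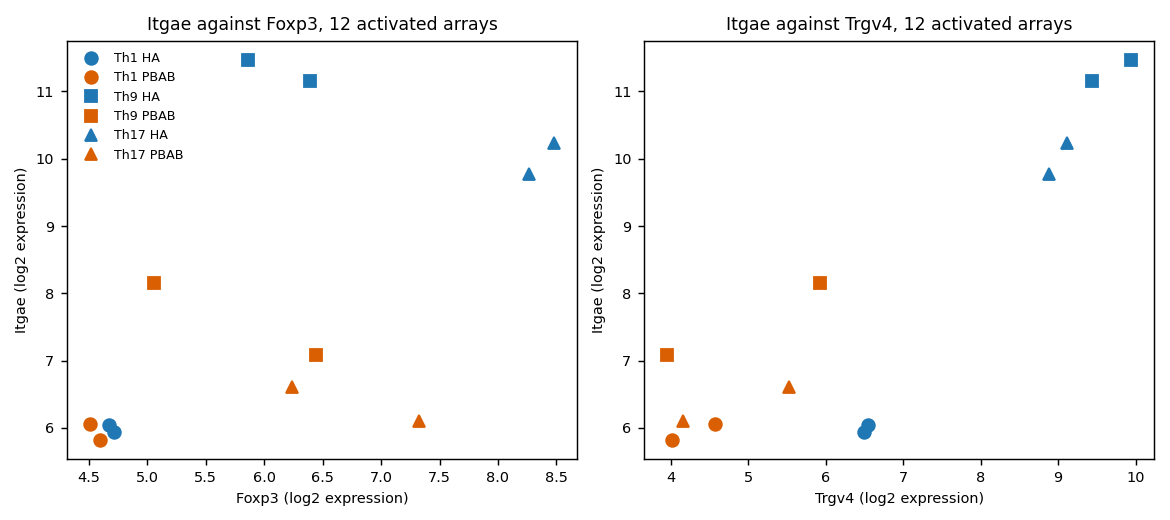
Itgae on the y axis against Foxp3 (left) and Trgv4 (right) on the x axis, all as log2 expression, on the 12 activated arrays, with shape for culture and colour for activation. The 4 Th9 and Th17 HA arrays lie above 9.7 for Itgae and above 8.8 for Trgv4, and the Th9 HA arrays hold less Foxp3 than the Th17 HA arrays at a higher Itgae level.

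Partners and ligands of the marker proteins were listed as 12 genes, of which 10 were tested. In the average over the cultures 2 were called higher and 3 lower, with a median of 0.07 against 0.02 over all genes, of which 30.6% were called. Itgb7, the beta 7 chain that pairs with CD103, fell with PBAB by 1.74 ± 0.21 in Th1 and by 1.71 ± 0.21 in Th9 cultures (limma adjusted p = 0.000497 and 0.00066), and was at -0.65 ± 0.21 in Th17 (limma adjusted p = 0.056). Unlike Itgae, Itgb7 was high in Th1 HA, at 10.62 and 10.53 against 10.99 and 10.69 in Th9 HA, a difference of 0.27 ± 0.21 that was not called (limma adjusted p = 0.678). Cdh1, which encodes the CD103 ligand E-cadherin, stood at 6.77 and 8.16 in Th9 HA and between 3.00 and 4.36 on the other 10 activated arrays, all below threshold. Its Th9 HA level exceeded that of Th1 HA by 4.02 ± 0.39 (limma adjusted p = 0.000159), with no fold given. Vegfa, a ligand of neuropilin-1, rose with PBAB by 1.19 ± 0.18 in the average (limma adjusted p = 0.000648), opposite to Nrp1.

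Izumo1r encodes folate receptor 4, a surface protein of regulatory and of some anergic T cells. It stood at 7.67 and 7.43 in Th1 HA, 8.50 and 8.16 in Th9 HA and 8.50 and 9.02 in Th17 HA. Under PBAB it stood at 8.44 and 8.52 in Th1, 10.62 and 10.12 in Th9 and 10.54 and 10.61 in Th17, and on APC alone arrays at 5.40 (Th1), 7.71 (Th9) and 6.58 (Th17). In each culture the PBAB arrays lay above the HA arrays, and the 4 Th9 and Th17 PBAB arrays stood above all others.

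Izumo1r rose with PBAB by 0.92 ± 0.23 in Th1, 2.04 ± 0.23 in Th9 and 1.82 ± 0.23 in Th17 cultures, or 1.90-fold, 4.11-fold and 3.52-fold (limma adjusted p = 0.0214, 0.000416 and 0.000725). The Th1 call was lost without Th1 HA replicate 2, Th1 PBAB replicate 1 or Th1 PBAB replicate 2 (adjusted p 0.138, 0.0767 and 0.115). The average was 1.59 ± 0.13 (limma adjusted p = 1.53e-05). It was the only one of the 7 genes called in all 3 cultures, and the test of a difference between cultures was not called (F = 6.74, limma adjusted p = 0.142). Under PBAB it was higher than in Th1 cultures by 1.89 ± 0.23 in Th9 and by 2.10 ± 0.23 in Th17 (limma adjusted p = 0.00163 and 0.000356). Under HA the Th17 minus Th1 difference was 1.20 ± 0.23 (limma adjusted p = 0.0092), lost without Th1 HA replicate 2 or Th17 HA replicate 2 (adjusted p 0.0708 and 0.0881). The Th9 minus Th1 difference of 0.77 ± 0.23 was called only with the block (adjusted p = 0.0371, against 0.0912). In its lineage order Izumo1r resembled Foxp3, with Th1 lowest under both activations, but it differed from Foxp3 in rising with PBAB.

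Tnfrsf18 encodes GITR, a costimulatory receptor of the TNF receptor superfamily. It stood at 12.65 and 12.23 in Th1 HA, 12.03 and 11.71 in Th9 HA and 11.22 and 10.94 in Th17 HA. Under PBAB it stood at 12.77 and 12.90 in Th1, 13.13 and 13.20 in Th9 and 12.51 and 12.92 in Th17, and on APC alone arrays at 7.82, 9.61 and 10.24. In each culture the PBAB arrays lay above the HA arrays, and under HA the 3 cultures were separate, with Th1 highest.

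Tnfrsf18 rose with PBAB by 1.30 ± 0.21 in Th9 and by 1.64 ± 0.21 in Th17 cultures, or 2.45-fold and 3.11-fold (limma adjusted p = 0.00291 and 0.000787), and the Th1 difference of 0.39 ± 0.21 was not called (limma adjusted p = 0.266). The average was 1.11 ± 0.12 (limma adjusted p = 7.66e-05). Under HA it was lower in Th17 than in Th1 cultures by -1.37 ± 0.21 (limma adjusted p = 0.00263), against the direction of Foxp3. The Th17 minus Th9 difference of -0.79 ± 0.21 was called with the block and after a further quantile normalization (adjusted p 0.0226 and 0.0455, against 0.063). The activation difference was larger in Th17 than in Th1 cultures by 1.25 ± 0.30 (limma adjusted p = 0.0483), a call lost in 11 of the 12 fits that left out 1 activated array. The test over all 3 cultures was called only with the block (F = 11.19, adjusted p = 0.0239, against 0.0771). Over the 12 activated arrays Tnfrsf18 correlated with Ikzf2 at r = 0.828 and with Foxp3 at r = -0.682.

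Nrp1 encodes neuropilin-1, a coreceptor for semaphorins and vascular endothelial growth factor that is used to mark regulatory T cells of thymic origin and is also found on myeloid cells. It stood at 6.81 and 8.09 in Th1 HA, 6.38 and 6.65 in Th9 HA and 7.20 and 8.23 in Th17 HA. Under PBAB it stood at 7.13 and 7.24 in Th1, 6.16 and 5.18 in Th9 and 5.37 and 5.86 in Th17, and on APC alone arrays at 7.26 (Th1), 7.40 (Th9) and 7.76 (Th17). The PBAB arrays lay below the HA arrays in Th9 and Th17 cultures and overlapped in Th1, where the HA arrays were far apart.

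Nrp1 fell with PBAB in Th17 cultures by 2.10 ± 0.46, or 4.29-fold (limma adjusted p = 0.0106), a call lost without Th17 HA replicate 2 or Th17 PBAB replicate 1 (adjusted p 0.0993 and 0.0793). PBAB minus HA was -0.84 ± 0.46 in Th9 and -0.26 ± 0.46 in Th1 cultures (limma adjusted p = 0.3 and 0.777). Averaged, Nrp1 fell by 1.07 ± 0.27 (limma adjusted p = 0.0106). Th17 minus Th1 under PBAB was -1.57 ± 0.46 (limma adjusted p = 0.0709), and was called with the block (adjusted p = 0.0219) and with each of the 3 other probe sets (-1.83, -2.80 and -0.88, adjusted p 0.0134, 0.00977 and 0.0315). Those probe sets followed the main one at r = 0.877 to 0.93 over the 12 activated arrays. The activation difference was not shown to vary between cultures (limma adjusted p = 0.275), although 1418084_at and 1457198_at gave such a call (F = 13.07 and 12.04, adjusted p 0.0405 and 0.0482). With 1457198_at the averaged difference was -0.30 and not called (adjusted p = 0.0894), and the Th1 difference turned to 0.43. The macrophage sum, highest in Th17 HA, correlated with Nrp1 at r = 0.407, and its part in the Th17 difference was not tested.

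**Figure D3:**
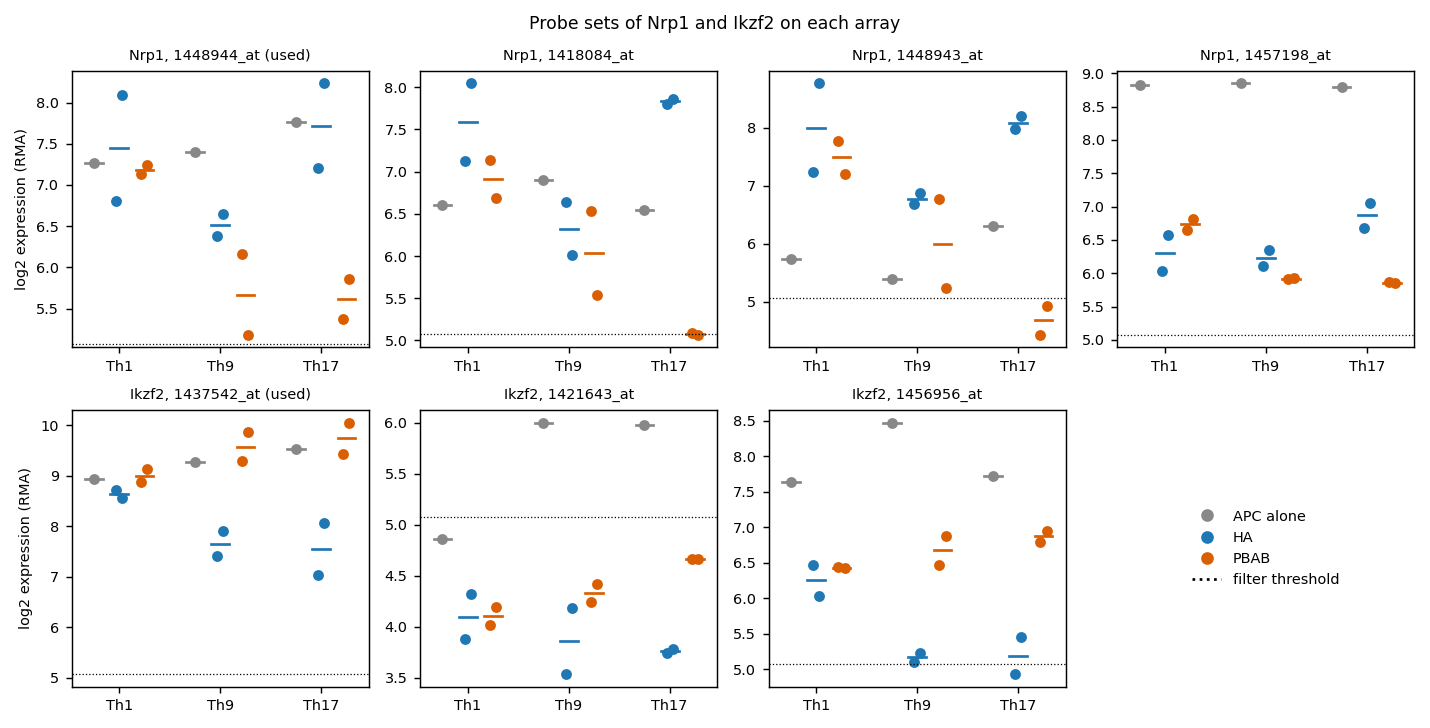
Log2 expression on each of the 15 arrays for the 4 probe sets of Nrp1 (top row) and the 3 of Ikzf2 (bottom row), with culture on the x axis, bars at group means and the filter threshold as a dotted line. All Nrp1 probe sets were lower in Th17 PBAB than in Th17 HA, and all Ikzf2 probe sets were higher in Th17 PBAB than in Th17 HA.

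Counted over the 7 genes, PBAB minus HA was called for 1 gene in Th1 cultures (Izumo1r, higher), where 14.6% of all 15498 genes were called. In Th9 cultures it was called for 4 genes, 3 higher (Izumo1r, Ikzf2 and Tnfrsf18) and 1 lower (Itgae), against 13.7% of all genes. In Th17 cultures it was called for 6 genes, with 3 higher (Izumo1r, Ikzf2 and Tnfrsf18) and 3 lower (Foxp3, Itgae and Nrp1), against 17.1%. In the average it was called for 5 genes, 3 higher and 2 lower, against 30.6%. The median difference of the 7 genes was 0.36, 0.50, 0.43 and 0.54 in these comparisons, and the median of all genes was at most 0.03. For the differences of the activation effect between cultures, 1 gene (Itgae) was called for Th9 against Th1, with 1.37% of all genes called, 2 (Itgae and Tnfrsf18) for Th17 against Th1, with 3.53%, and none for Th17 against Th9, with 1.71%. In that last comparison none of the 7 had an unadjusted p under 0.05. The test over all 3 cultures was called for Itgae, and for 4.19% of all genes. The members' share of calls was above that of all genes in Th9 and Th17 cultures and near it in Th1. Since the members were chosen with earlier results of these data known, these shares are a description and not a test.

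**Figure D4:**
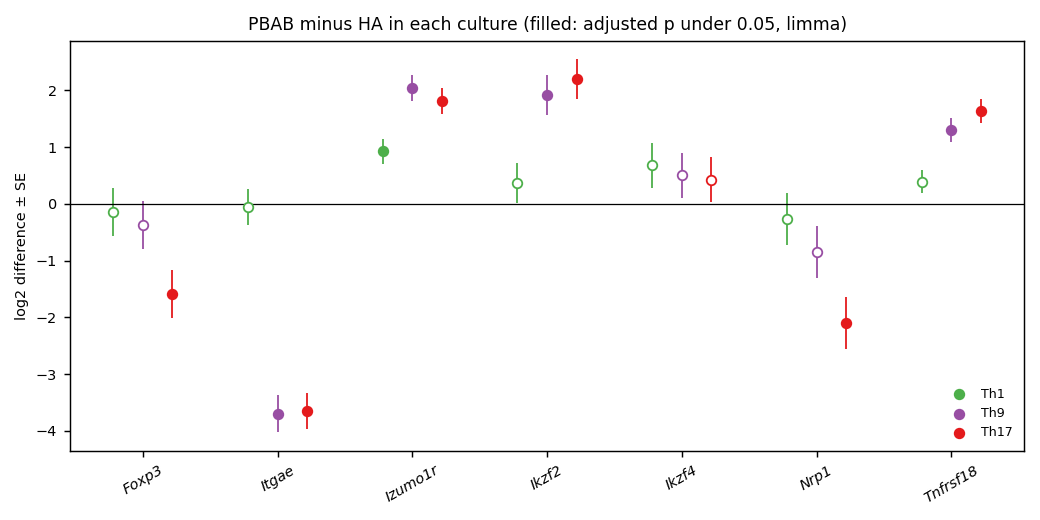
PBAB minus HA in log2 units (y axis) for each of the 7 genes (x axis) in Th1, Th9 and Th17 cultures, as estimate ± SE from the limma fit, filled where the adjusted p was under 0.05. Izumo1r, Ikzf2 and Tnfrsf18 lie above 0 and Itgae, Nrp1 and Foxp3 below it, with the largest differences in Th9 and Th17 cultures.

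Between lineages under HA, 1 gene (Itgae) was called in Th9 minus Th1, where 5.34% of all genes were called. In Th17 minus Th1, 4 genes were called, 3 higher (Foxp3, Itgae and Izumo1r) and 1 lower (Tnfrsf18), against 6.9%. In Th17 minus Th9, 2 were called, Foxp3 higher and Itgae lower, against 4.77%. Under PBAB, 2 genes (Itgae and Izumo1r) were called higher in Th9 minus Th1, against 2.16%, and 2 (Foxp3 and Izumo1r) higher in Th17 minus Th1, against 6.99%. In Th17 minus Th9, 1 gene (Itgae) was called lower, against 6.37%. Without the block, Foxp3 and Izumo1r were thus called higher in Th17 than in Th1 cultures under both activations, and Itgae in Th9 than in Th1 under both. With the block, Ikzf4 joined the former and Izumo1r the latter.

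**Figure D5:**
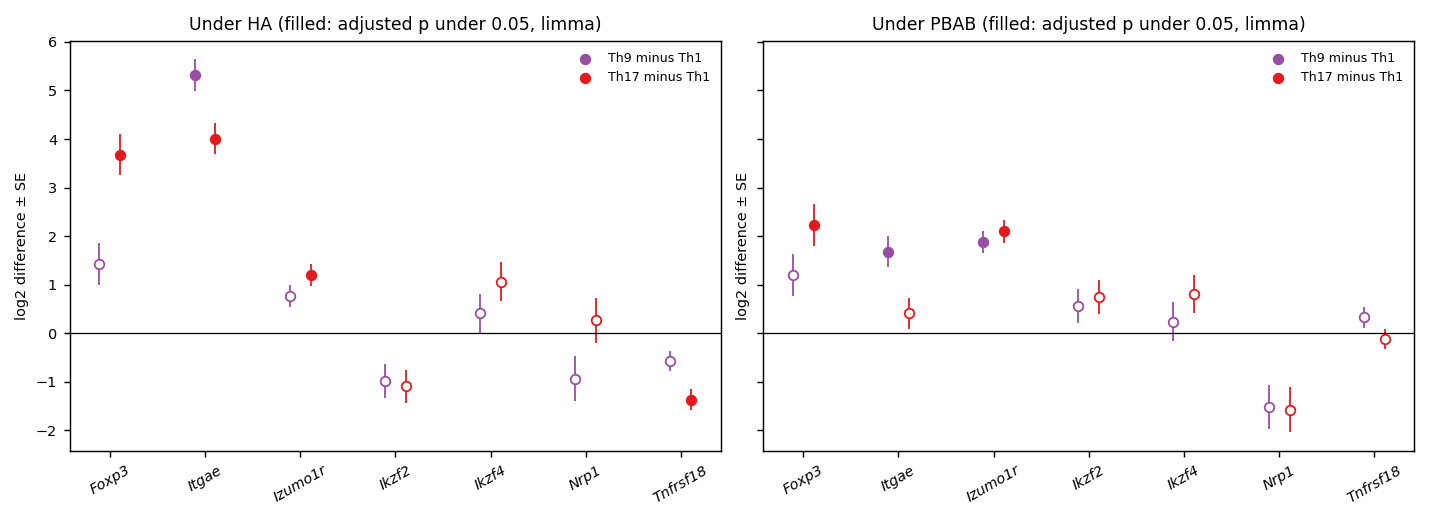
Th9 minus Th1 and Th17 minus Th1 in log2 units (y axis) for each of the 7 genes (x axis) under HA (left) and PBAB (right), as estimate ± SE, filled where the limma adjusted p was under 0.05. Under HA, Itgae differed by 5.32 and 4.01 and Foxp3 by 3.68 in Th17, and under PBAB the Itgae differences were 1.68 and 0.41.

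Of 22 genes of TGF-beta signalling, all tested, 6 were called higher and 1 lower in Th9 than in Th1 under HA, where 5.34% of all genes were called. In Th17 against Th1 under HA, 7 were called, each of them higher, against 6.9% of all genes. The medians were 0.13 and 0.35 against 0.01 and 0.02 over all genes. Under PBAB 3 genes were called for Th9 and 8 for Th17, each of them higher than in Th1, against 2.16% and 6.99% of all genes. Ldlrad4, a TGF-beta target that dampens Smad activation, was higher than in Th1 by 3.80 ± 0.34 in Th9 and 3.90 ± 0.34 in Th17 under HA (limma adjusted p = 0.000112 and 6.36e-05), and by 1.81 ± 0.34 and 2.78 ± 0.34 under PBAB (limma adjusted p = 0.0227 and 0.000795). Tgfbr1, the type I receptor, was higher than in Th1 by 2.06 ± 0.25 and 1.77 ± 0.25 under HA and by 1.21 ± 0.25 and 1.04 ± 0.25 under PBAB (limma adjusted p = 0.000745, 0.00166, 0.0375 and 0.0348). Skil, a target and repressor of the pathway, was higher in Th17 than in Th1 by 2.09 ± 0.21 under HA and 1.41 ± 0.21 under PBAB (limma adjusted p = 0.000177 and 0.00278).

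Between the activations, 3 of the 22 TGF-beta genes were called higher and 5 lower in the average, where 30.6% of all genes were called, so that this share is near the background. Tgfbr2, the type II receptor, fell by 1.15 ± 0.13 and Tgif1, a Smad corepressor, rose by 1.43 ± 0.13 (limma adjusted p = 7.84e-05 and 2.99e-05). PBAB minus HA for Ldlrad4 was 0.99 ± 0.34 in Th1, -0.9995 ± 0.34 in Th9 and -0.13 ± 0.34 in Th17 cultures, none of them called (limma adjusted p = 0.0817, 0.0827 and 0.863). Smad3, a mediator of TGF-beta signals on Foxp3, was higher in Th17 PBAB than in Th1 PBAB by 2.08 ± 0.23 (limma adjusted p = 0.000408), and in Th17 cultures rose with PBAB by 0.78 ± 0.23 (limma adjusted p = 0.0418), opposite to Foxp3.

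Of 25 listed activators of Foxp3, 24 were tested, and in the average 8 were called higher and 4 lower with PBAB (median 0.19 against 0.02 over all genes, of which 30.6% were called). Nr4a3 and Nr4a2, receptors induced by T cell receptor signals that can drive Foxp3, rose by 3.37 ± 0.11 and 3.05 ± 0.21 (limma adjusted p = 2.34e-07 and 5.01e-06). Runx1, which binds Foxp3 and its gene, fell by 1.21 ± 0.10 (limma adjusted p = 1.8e-05) and was higher than in Th1 under HA by 1.77 ± 0.18 in Th9 and 0.99 ± 0.18 in Th17 (limma adjusted p = 2e-04 and 0.00693). Of 20 listed antagonists, 18 were tested, with 3 called higher and 5 lower in the average (median -0.23). Dnmt1 and Uhrf1, which keep the Foxp3 locus methylated, fell with PBAB by 1.07 ± 0.14 and 1.31 ± 0.13, and Id2 fell by 2.04 ± 0.17 (limma adjusted p = 0.000231, 4.52e-05 and 1.78e-05). Il6ra, a chain of the IL-6 receptor, was higher in Th17 than in Th1 cultures by 2.73 ± 0.26 under HA and 1.89 ± 0.26 under PBAB (limma adjusted p = 0.000135 and 0.00178). Tbx21, the Th1 master regulator, was lower than in Th1 under HA by -4.02 ± 0.43 in Th9 and -5.01 ± 0.43 in Th17 (limma adjusted p = 0.000291 and 5.9e-05), and Gata3, the Th2 regulator, was higher in Th9 than in Th1 under PBAB by 3.48 ± 0.40 (limma adjusted p = 0.00135). In Th17 cultures, where Foxp3 fell with PBAB, 7 of the 24 activators were called higher and 3 lower (17.1% of all genes were called there). Nr4a2 and Nr4a3 rose there by 3.10 ± 0.36 and 1.47 ± 0.19, and Runx1 fell by 0.85 ± 0.18 (limma adjusted p = 0.000526, 0.000811 and 0.00889). Of the 18 antagonists, 2 were called higher and 4 lower there. Dnmt1 and Uhrf1 were among those that fell, with differences of -1.49 ± 0.24 and -1.69 ± 0.23 (limma adjusted p = 0.00245 and 0.000919).

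Other genes associated with regulatory T cells were listed as 24 symbols, of which 23 were tested. In the average over the cultures 6 were called higher and 5 lower with PBAB, with a median of 0.10 against 0.02 over all genes, of which 30.6% were called. Fgl2, a secreted effector of regulatory T cells, fell by 3.69 ± 0.21 to means below threshold in all 3 PBAB groups, Prdm1, which encodes Blimp-1 and was below threshold in both Th17 groups, fell by 2.05 ± 0.19, and the costimulator Icos fell by 1.501 ± 0.15 (limma adjusted p = 1.96e-06, 3.44e-05 and 4.87e-05). Ccr8, a chemokine receptor of Th2 and regulatory cells, was higher in Th9 than in Th1 cultures by 4.36 ± 0.26 under HA and 3.47 ± 0.26 under PBAB (limma adjusted p = 8.18e-06 and 0.000137), and its Th1 HA mean of 4.42 was below threshold. Penk, which encodes proenkephalin, was higher in Th9 than in Th1 under HA by 4.14 ± 0.39 (limma adjusted p = 0.00013) and lower in Th17 than in Th1 under PBAB by -3.76 ± 0.39 (limma adjusted p = 0.000263). Nt5e, which encodes the ecto-enzyme CD73, was higher in Th17 than in Th1 by 1.62 ± 0.19 under HA and 2.26 ± 0.19 under PBAB (limma adjusted p = 0.000551 and 9.33e-05), in the direction of Foxp3. Entpd1, which encodes the partner enzyme CD39, was lower in Th17 than in Th1 under HA by -3.51 ± 0.35 (limma adjusted p = 0.000155), and Prdm1 was lower there by -4.75 ± 0.34 (limma adjusted p = 1.89e-05), to a mean of 5.02 that was below threshold. A difference against a mean below threshold is measured against background and its size is not exact. In Th17 minus Th1 under HA, 4 of the 23 were called higher and 7 lower, where 6.9% of all genes were called. The calls of the wider list thus went both ways.

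Against APC alone, both averaged contrasts share the same 3 control arrays, which differ from the activated arrays in scale: the interquartile range of all probe sets was 2.02 to 2.09 on them and 3.02 to 3.48 on the activated arrays. Their 3′ to 5′ actin difference of 0.736 to 0.994 was also above that of every activated array. The control arrays differed in cell markers too. All 9 T cell markers were called lower on them, and all 10 macrophage markers higher, in both contrasts. Their summed T cell level was 10.39 to 11.68, while no activated array fell below 14.44. Their macrophage sum was 14.16 to 14.45, while no activated array exceeded 11.40. The part of cell content in the differences against APC alone was not tested. The median gene was 0.36 higher in HA and 0.31 higher in PBAB than in APC alone. HA minus APC alone was called for 5 of the 7 genes, 4 higher and 1 lower, where 90.7% of all genes were called, and PBAB minus APC alone for 4, 3 higher and 1 lower, where 89.8% were. Tnfrsf18 was higher than in APC alone by 2.57 ± 0.15 in HA and 3.68 ± 0.15 in PBAB, and Izumo1r by 1.65 ± 0.16 and 3.24 ± 0.16 (limma adjusted p = 2.83e-08, 2.36e-09, 2.05e-06 and 9.82e-09). Itgae was higher by 2.44 ± 0.23 in HA (limma adjusted p = 1.42e-06) and at -0.03 ± 0.23 in PBAB (limma adjusted p = 0.899). Leaving out an APC alone array also took its culture out of these averages, so the resulting values describe only the other cultures. Foxp3 was higher by 1.28 ± 0.30 in HA (limma adjusted p = 0.00196). Without the Th17 APC alone array, and so without Th17 cultures in the average, this value was 0.18 and not called. The PBAB difference of 0.58 ± 0.30 (limma adjusted p = 0.092) was called with the block (adjusted p = 0.0332). It ran from -0.0793 with Th17 cultures out of the average to 1.31 with Th1 cultures out of it. Ikzf2 was lower in HA by -1.31 ± 0.25 (limma adjusted p = 0.000397) and at 0.19 ± 0.25 in PBAB (limma adjusted p = 0.481). With both other probe sets the PBAB difference turned and was called lower (-1.24 and -1.29, limma adjusted p = 2.05e-05 and 1.46e-05). Ikzf4 was called higher in PBAB by 0.68 ± 0.28 (limma adjusted p = 0.0415), a call that was lost when any 1 of 5 arrays was left out (0.31 without the Th17 APC alone array). After a further quantile normalization the difference turned to -1.004 and was called lower (limma adjusted p = 0.00135). Nrp1 was lower in PBAB by -1.32 ± 0.32 (limma adjusted p = 0.00259), which was lost without the Th17 APC alone array (adjusted p = 0.0522), and with 1448943_at this was 0.25 and not called (adjusted p = 0.533). With probe set 1457342_at Ikzf4 was called higher than in APC alone in HA too (3.67, adjusted p = 7.71e-07), as with the mean of its probe sets (1.30, adjusted p = 0.000513), against 0.14 ± 0.28 with the main probe set (limma adjusted p = 0.642). The direction against APC alone thus varied with the probe set or scaling for Ikzf4 and Nrp1 in both activations, and for Itgae and Ikzf2 in PBAB, while the lower Ikzf2 level in HA kept its call under all alternatives.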

How the data were processed

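Affymetrix mouse expression arrays, 1 for each of 15 samples, were hybridised from 500 ng of total RNA. The deposited log2 expression values of 45101 probe sets were made by the authors with RMA, per the submitters' processing notes, and were used as deposited. The RMA software was not given in the sources used here. That the logs are to base 2 was inferred from their range of 2.10 to 15.05. Probe sets were named from a platform annotation of 2016, in which 34958 carried 1 gene symbol, 932 several and 9211 none. Only those with 1 symbol were used, with the highest mean over the arrays deciding among several of a gene. Genes entered the tests when the probe set chosen lay above the table's 40th percentile on 2 or more arrays.

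Group means of all 9 groups were estimated in limma 3.58.1 (R 4.3.3) from all 15 arrays (6 residual and 4.38 prior degrees of freedom), with Benjamini-Hochberg adjustment over all genes tested. The fit was tested on simulated data. The small number of arrays (2 in each activated group, 1 in each APC alone group) limits the precision. The labels call the replicates biological without naming animals or cultures, so the p-values reflect only how far these samples vary, which may be technical. Arrays with the same replicate number deviated together in all 15 pairs of activated groups (correlation 0.296 to 0.708, median 0.484). Each result was therefore also computed with replicate number as a blocking term, which treats shared numbers as pairs. Values given as limma adjusted p, and the calls that rest on them, came from the fit without this block and so ignore the pairing. Alternatives were the block, other filters, equal array medians and a further quantile normalization. Others were other probe sets or their mean where a gene had them, the 12 activated arrays alone and leaving out each array. Each APC alone group holds 1 array and adds nothing to the estimated spread. Leaving such arrays out therefore cannot change a comparison among activated groups. Genes named are the members, the called genes with the smallest adjusted p of each pathway list (up to 3 per comparison) and the 5 most like Foxp3, while marker genes and partners set beside a member were picked after their values were seen. The members and lists were chosen with earlier results of these data known.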

Additional observations from a re-analysis of the deposited data

Results flagged for a closer look

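The activation effect on Itgae differed between cultures. PBAB minus HA was lower in Th9 than in Th1 cultures by -3.642 log2 units and lower in Th17 than in Th1 cultures by -3.596 log2 units, and the limma test over all 3 cultures gave F = 42.35 (adjusted p = 0.00418, 0.00281 and 0.00287). All 4 PBAB arrays of the Th9 and Th17 cultures lay below all 4 HA arrays of these cultures, and the Th1 arrays overlapped.

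The activation effect on Tnfrsf18 also differed between cultures, by 1.245 log2 units more in Th17 than in Th1 (limma adjusted p = 0.0483). This call was lost in 11 of the 12 fits that left out 1 activated array.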

How the results depend on the processing

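Of 41 called results of the 7 genes, 26 kept their call under all alternatives. The replicate number as a block (pairing of arrays) gained 20 calls among the members and lost none of those made without it, and it raised the number of genes called by over 1.5 times in 10 of 13 comparisons. With the block, PBAB minus HA was called for 4380 genes in Th1 (2266 without), 4056 in Th9 (2126) and 4709 in Th17 (2648). Under HA it gave 1863 for Th9 minus Th1 (827), 2373 for Th17 minus Th1 (1069) and 1831 for Th17 minus Th9 (739). Under PBAB it gave 861 (334), 2642 (1083) and 2351 (987) in the same order, and 2316 (649) for the test of activation by culture. The other settings (no filter, the 60th percentile, equal medians, a further quantile normalization and the mean of probe sets) kept these counts within 1.5 times. The 12 activated arrays alone gave the same counts by design, since an APC alone group of 1 array adds nothing to the estimated spread. Leaving out 1 APC alone array likewise cannot change these counts.

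Leaving out 1 array in turn gave 1078 to 2266 genes for PBAB minus HA in Th1, 1056 to 2126 in Th9, 1214 to 2654 in Th17 and 4084 to 4735 averaged. Under HA it gave 474 to 827 for Th9 minus Th1, 591 to 1069 for Th17 minus Th1 and 364 to 739 for Th17 minus Th9. Under PBAB it gave 123 to 334, 455 to 1083 and 458 to 987 in the same order. It gave 13598 to 14057 for HA and 13488 to 13944 for PBAB against APC alone, and 309 to 649 for the test of activation by culture.

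Signs turned mainly against APC alone, and the cause was not tested. For PBAB minus APC alone, Itgae became 0.12 with the mean of probe sets, 0.39 with equal medians and 0.27 with the other probe set. In the same comparison Ikzf2 became -0.78 with the mean of probe sets, -1.65 with quantile normalization, and -1.24 and -1.29 with other probe sets, Ikzf4 became -1.004 with quantile normalization, and Nrp1 became 0.25 with 1448943_at. These Ikzf2 and Ikzf4 values were called, each of them lower. For HA minus APC alone, Ikzf4 became -1.54 with quantile normalization and Nrp1 became 0.19 with equal medians, 0.57 with 1418084_at and 1.81 with 1448943_at. Of these, the -1.54 of Ikzf4 and the 1.81 of Nrp1 were called. PBAB minus HA in Th1 became 0.43 for Nrp1 with 1457198_at. Leaving out 1 array, PBAB minus HA ran from -1.06 to 0.31 for Foxp3 in Th9, from -0.17 to 0.0626 for Itgae in Th1 and from -0.91 to 0.38 for Nrp1 in Th1. Against APC alone it ran from -0.0793 to 1.31 for Foxp3 and from -0.45 to 0.20 for Itgae in PBAB, and from -0.28 to 0.46 for Ikzf4 and from -0.47 to 0.0697 for Nrp1 in HA. Where an APC alone array was left out, the values against APC alone averaged only the other cultures. A lone array left in a group was assumed to vary like the others. Signal over background limited Foxp3, which was above threshold on 8 of 15 arrays.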
